A study of Mus musculus with 18 samples.

Results

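BATF, the interferon regulatory factors IRF4 and IRF8, and the JUN and FOS proteins of AP-1 are transcription factors that act downstream of the T cell receptor and cytokine receptors. The transcripts of 10 such genes, Batf, Batf3, Irf4, Irf8, Jun, Junb, Jund, Fos, Fosb and Fosl2, were followed here among the 18194 genes that the arrays measured. They were taken as a list of gene symbols and 1 probe set was selected on measured values for each, namely the one with the highest mean over all 18 arrays after quantile normalization. That choice uses the overall level and not the difference between groups. The list itself was drawn up with earlier results of these arrays known, so the number of its genes that changed is a description and not evidence about the family.

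The cells were CD8 T cells from spleens of male OT-I TCR transgenic mice, whose T cell receptor recognises a peptide of ovalbumin, so that the CD8 T cells share 1 specificity. All 6 groups were primed for 48 hours with peptide-pulsed, irradiated splenocytes from C57BL/6 mice, and live cells were then enriched on a density gradient. They then spent 24 hours with a single cytokine at 100 ng/ml, namely IL-2 or IL-4, IL-7 or IL-15, or else IL-21, or in media alone (media control). Cells cultured with IL-2 are called IL-2 cells, and so on. There were 3 biological replicates of each group, 1 array each. RNA of replicates 1 and 2 was extracted with the RNeasy kit and RNA of replicate 3 with TRIzol and Direct-zol, so the kit and the third replicate cannot be told apart.

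AP-1 is a dimer of basic leucine zipper (bZIP) proteins. JUN, JUNB and JUND can pair with each other or with FOS, FOSB and FOSL2 (also called FRA2). BATF and BATF3 are small bZIP proteins that pair with JUN proteins and lack a transactivation domain of their own. In T cells a BATF and JUN dimer binds DNA together with IRF4 or IRF8 at composite elements. Irf4 is induced by T cell receptor signals, and Batf3 and Irf8 are also known as factors of the conventional dendritic cells that cross-present antigen. The γc cytokines act on T cells through STAT proteins, mainly STAT5 for IL-2, IL-7 and IL-15, STAT6 for IL-4 and STAT3 for IL-21. For CD8 T cells the authors cite work proposing that IL-4 acts largely through STAT3, with little use of STAT6.

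The stretch of 250 bases before to 50 bases after the start of each gene was read from RefSeq (mouse build GRCm38.p6), where all 10 genes were found and Irf8 has 2 starts, which gives 11 windows. These windows were searched on both strands for the 2 half-sites of a STAT site, TTC and GAA, with 3 bases between them (TTCNNNGAA) or with 4, for the AP-1 site TGANTCA and for the CRE site TGACGTCA. They were also searched for AP-1 and IRF composites, namely TGANTCA preceded by TTTC with 4 bases between them or directly by GAAA, both of which hold the AP-1 site, and for the interferon response core of GAAA and GAAA with 2 bases between them. TTCNNNGAA was present in 2 of the 11 windows and in 8.3% of the 32851 windows of the whole table, and the matches lay in Batf3 and at the upstream start of Irf8. The interferon response core was present in 1 window, that of Fosl2 (3.44% of all windows). The STAT site with 4 bases (6.95% of all windows), TGANTCA (7.81%), TGACGTCA (1.79%) and the composites with TTTC (0.119%) and with GAAA (0.125%) had no match in the 11 windows. A match describes the letters only. The windows that held a match are shown 5′ to 3′, all on the plus strand, with the matched letters in capitals, which are TTCNNNGAA in Batf3 and Irf8 and the interferon response core, read on the other strand, in Fosl2.
Batf3 (chr1:191098164-191098463): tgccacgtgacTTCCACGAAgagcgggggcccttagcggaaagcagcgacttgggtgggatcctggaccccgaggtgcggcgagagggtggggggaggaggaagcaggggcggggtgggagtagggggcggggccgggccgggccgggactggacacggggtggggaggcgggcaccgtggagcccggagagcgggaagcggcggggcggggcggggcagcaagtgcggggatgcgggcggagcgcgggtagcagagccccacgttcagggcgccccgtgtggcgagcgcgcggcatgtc
Irf8 (chr8:120736108-120736407): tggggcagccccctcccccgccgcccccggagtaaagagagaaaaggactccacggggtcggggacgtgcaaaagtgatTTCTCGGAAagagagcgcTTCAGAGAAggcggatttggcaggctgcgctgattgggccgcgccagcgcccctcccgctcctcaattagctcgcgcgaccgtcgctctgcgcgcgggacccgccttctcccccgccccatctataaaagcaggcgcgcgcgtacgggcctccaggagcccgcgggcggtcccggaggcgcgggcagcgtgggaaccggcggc
Fosl2 (chr5:32136222-32136521): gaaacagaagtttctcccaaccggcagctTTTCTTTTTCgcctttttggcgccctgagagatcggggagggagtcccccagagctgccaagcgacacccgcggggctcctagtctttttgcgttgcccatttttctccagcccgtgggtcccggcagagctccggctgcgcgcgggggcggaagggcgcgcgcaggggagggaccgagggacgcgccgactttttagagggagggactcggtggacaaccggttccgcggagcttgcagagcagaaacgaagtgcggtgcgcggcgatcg
Counted from the start of the gene, the match in Batf3 begins at position -239, those in Irf8 at -171 and -153, and that in Fosl2 at -221.

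On the same build, Batf (chr12:85686720-85709087) and Fos (chr12:85473890-85477274) lie near each other on chromosome 12, and Irf8 (chr8:120736358-120756694), Junb (chr8:84976909-84978748) and Jund (chr8:70697739-70700616) lie on chromosome 8. Batf3 is at chr1:191098414-191108943, Irf4 at chr13:30749233-30766981, Jun at chr4:95049036-95052222, Fosb at chr7:19302696-19310118 and Fosl2 at chr5:32136472-32157840.

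Levels are log2 values made with the RMA algorithm and then quantile normalized here, because replicate 3 of IL-2, IL-15 and media control had array medians of 4.47 to 4.52 as deposited, against 5.76 to 5.84 on the other 15 arrays. Levels of different genes come from different probes and are not compared with each other. The background level used here, 6.53, is the 95th percentile among 33 genes of other tissues, ranked by mean. Of the 10 members, 9 had a mean above it and Fosb, at 4.77, did not. Of the CD8 T cell markers, 9 of 9 measured were above it, as were 1 of 9 B cell, 1 of 8 dendritic cell, 3 of 10 myeloid cell, 1 of 3 NK cell, 1 of 4 CD4 T cell and 0 of 3 red cell markers. Differences from media control were tested in limma with all 18 arrays in the fit, two-sided, and p was adjusted over all genes of a comparison. For second probe sets of members, the fit and the adjustment ran over all 45101 probe sets instead. A gene was counted as changed at an adjusted p under 0.05. The 5 comparisons share the 3 media control arrays and are therefore not independent of each other.

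The response differed by member. In this fit, which took no account of replicate numbers, Batf3 was higher with every cytokine but IL-15. Fosl2 and Junb were higher with IL-2, IL-21 and IL-4, and Batf with IL-4 and IL-21. Irf4 was higher with IL-2 alone among the 5 comparisons, and also with IL-7 and IL-21 once replicate numbers were taken into account (below). With IL-2, 4 of the 10 members changed (15.8% of all genes did). With IL-4 it was again 4 (9.07% of all genes), 1 in IL-7 cells (1.68%) and 4 in IL-21 cells (6.67%). The median difference of the members was 0.56 in IL-2 cells (0.01 over all genes), 0.58 in IL-4 cells (0.00), 0.43 in IL-7 cells (-0.02), 0.12 in IL-15 cells (-0.01) and 0.90 in IL-21 cells (-0.01). With IL-15 no member changed (0% of all genes in limma, where 390 genes and 0 members had an unadjusted p under 0.05). All 13 changes were increases over media control. In whole cultures, more RNA per cell and more cells of a type cannot be told apart.

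Markers of cell types moved beside these changes, all downward where they passed. Of 9 CD8 T cell markers, 6 fell in IL-2 cells, 3 in IL-4 cells, 1 in IL-7 cells, 0 in IL-15 cells and 1 in IL-21 cells. With IL-2, Cd5 fell by 1.51, Cd3e by 1.17, Cd8b1 by 1.13 and Cd3g by 1.02. Cd5, an inhibitory coreceptor of T cells, also fell with IL-4 (by 0.62), IL-7 (by 0.69) and IL-21 (by 0.97). Of 9 B cell markers, Cd79a (-0.64), Cd79b (-0.60) and Ms4a1 fell in IL-2 cells, Ms4a1 (-1.17) and Cd79a (-0.67) in IL-7 cells, and Cd79b (-0.89) in IL-21 cells. Of 10 myeloid cell markers Cd68 fell in IL-2 cells (-1.45, adjusted p = 0.0286), and none passed with another cytokine. Itgax of the dendritic cell list passed in IL-2 cells (-1.42), and Klre1 of the NK cell list in IL-4 cells (-1.22). The part of the make-up of the cultures in the levels of the members was not tested.

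Same-numbered arrays of different groups varied together, so a second fit took the replicate number as a block, which compares arrays within a replicate. It kept all 13 changes and added others. Added were Irf4 with IL-7 and IL-21, Fosl2 with IL-7, and Jun and Fos with IL-21. Irf8 was added with every cytokine but IL-15, Jund with IL-2 and IL-4, and a decrease of Batf with IL-2. With the block, 7 members passed in IL-2 cells (30.6% of all genes), 6 in IL-4 cells (25.8%), 4 in IL-7 cells (16.3%), 0 in IL-15 cells (0% of all genes, lowest adjusted p 0.158) and 8 in IL-21 cells (21.1%). Where a call against media control depends on the block, both values are given.

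**Figure D1:**
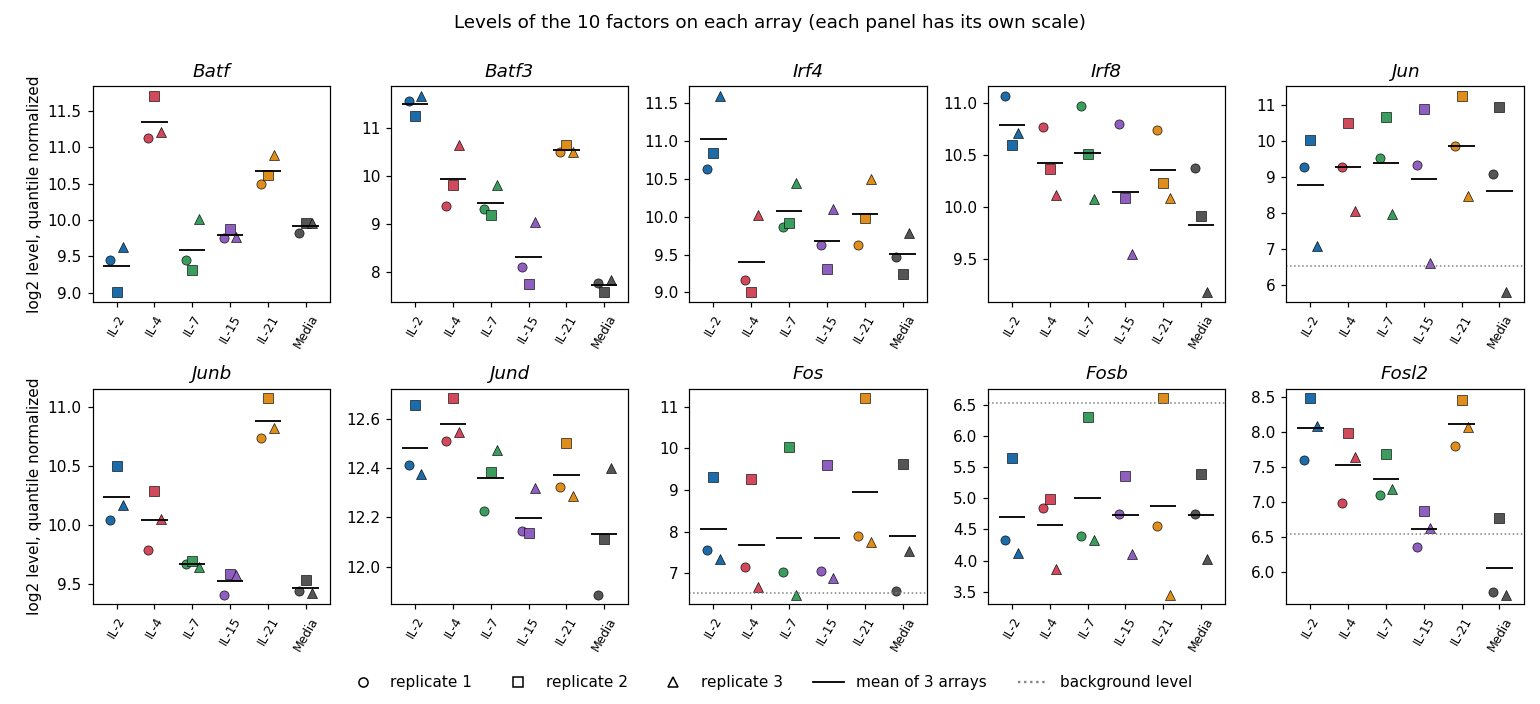
The log2 level of each of the 10 genes (y axis, 1 panel per gene with its own scale) is plotted for the 6 groups (x axis). Symbols mark the replicate numbers, bars the mean of 3 arrays and the dotted line the background level of 6.53. The IL-2 arrays of Batf3 (11.25 to 11.68) and the IL-21 arrays of Junb (10.74 to 11.07) lie above those of all other groups, while replicate 2 is the highest array of Fos and of Jun in every group.

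Batf3 had the widest span of group means among the members. With IL-2 its levels were 11.57, 11.25 and 11.68, against 7.78, 7.58 and 7.82 in media control. All 3 IL-2 arrays were above all 3 control arrays, by 3.78 on the log2 scale (SE 0.32), or 13.7-fold (adjusted p = 3.28e-06). With IL-21 the levels were 10.50, 10.66 and 10.51, which is 2.83 above media control (SE 0.32, 7.12-fold, adjusted p = 4.75e-05). The IL-21 arrays lay close to each other and clear of the control arrays.

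With IL-4 Batf3 was at 9.37, 9.81 and 10.66, and the difference from media control was 2.22 (SE 0.32, adjusted p = 0.000377). With IL-7 it was at 9.31, 9.18 and 9.81, a difference of 1.71 (adjusted p = 0.0135). The arrays of both groups were above all control arrays. The IL-7 call was lost when any 1 of the 3 IL-7 arrays or media control replicate 2 was left out (adjusted p 0.0557 to 0.0738), and without replicate 1 (0.287) or replicate 2 (0.258) of all groups. With IL-15 the levels were 8.10, 7.74 and 9.05, which overlap those of media control (difference 0.57, 95% confidence interval -0.10 to 1.24).

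Between cytokines, IL-2 exceeded IL-4 for Batf3 by 1.56 (adjusted p = 0.0138), IL-7 by 2.07 (adjusted p = 0.00378) and IL-15 by 3.20 (adjusted p = 2.54e-05). Batf3 was also higher with IL-4 than with IL-15 (1.65, adjusted p = 0.00732), and lower with IL-15 than with IL-21 (-2.26, adjusted p = 0.000506). The order of the group means was IL-2, IL-21, IL-4, IL-7, IL-15 and media control. Of the neighbours in that order, IL-2 and IL-21 differed by 0.95 (adjusted p = 0.0933, with the block 0.00838). The other 4 pairs of neighbours passed in neither fit.

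Batf followed another order. With IL-4 its levels were 11.12, 11.71 and 11.20, against 9.82, 9.96 and 9.96 in media control, a difference of 1.43 (SE 0.20, 2.70-fold, adjusted p = 0.000349). With IL-21 they were 10.49, 10.62 and 10.90, a difference of 0.76 (SE 0.20, 1.69-fold, adjusted p = 0.0324). Both groups lay above all control arrays. The IL-21 call was lost when any 1 of the 6 arrays compared was left out (adjusted p 0.0522 to 0.136), and when any 1 replicate was left out of all groups (0.0656 to 0.322).

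With IL-2 the Batf levels of 9.46, 9.01 and 9.63 were all below those of media control. The difference of -0.54 (95% confidence interval -0.97 to -0.12) did not pass (adjusted p = 0.084), and did with the block (adjusted p = 0.033) or without IL-2 replicate 3 (0.0487). It was the 1 decrease from media control among the members that passed with the block. With IL-7 (9.45, 9.32 and 10.01) and IL-15 (9.75, 9.88 and 9.76) its levels overlapped the control.

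The means of IL-2 and IL-4 thus lay on opposite sides of media control for Batf and on the same side for Batf3. Tested directly, IL-2 minus IL-4 was -1.98 for Batf (adjusted p = 4.3e-05) and 1.56 for Batf3. Batf was also lower with IL-2 than with IL-21 (difference -1.30, adjusted p = 0.000954), higher with IL-4 than with IL-7 (1.75, adjusted p = 0.000245) and IL-15 (1.55, adjusted p = 0.000312), and lower with IL-7 (-1.08, adjusted p = 0.00686) and IL-15 (-0.87, adjusted p = 0.0228) than with IL-21. The order of the group means was IL-4, IL-21, media control, IL-15, IL-7 and IL-2. IL-4 and IL-21 differed by 0.68 (adjusted p = 0.0852, with the block 0.0241), and neighbours from media control down to IL-2 passed in neither fit.

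Irf4, the partner of BATF at composite elements, was highest with IL-2. Its levels there were 10.64, 10.84 and 11.60, against 9.47, 9.25 and 9.79 in media control, with no overlap, and the difference was 1.52 (SE 0.32, 2.87-fold, adjusted p = 0.00343). The call was lost when replicate 1 (adjusted p = 0.0582) or replicate 2 (0.0842) was left out of all groups. With IL-4 they were 9.16, 9.01 and 10.03, which overlap media control (difference -0.10, 95% confidence interval -0.78 to 0.57). Irf4 and Batf thus differed in opposite directions between these 2 cytokines, since IL-2 minus IL-4 was 1.63 for Irf4 (adjusted p = 0.0111). IL-2 also exceeded IL-15 for Irf4, by 1.34 (adjusted p = 0.0144).

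With IL-7 Irf4 was at 9.87, 9.91 and 10.44, a difference of 0.57 from media control that passed with the block alone (adjusted p = 0.451, with the block 0.0103). With IL-21 it was at 9.62, 9.99 and 10.50, a difference of 0.53 (adjusted p = 0.452, with the block 0.0104). The IL-7 arrays lay above all control arrays and those of IL-21 overlapped them, and replicate 3 was the highest array of Irf4 in all 6 groups. IL-15, at 9.62, 9.32 and 10.11, overlapped media control. In the order IL-2, IL-7, IL-21, IL-15, media control and IL-4, the neighbours IL-2 and IL-7 differed by 0.95 (adjusted p = 0.20, with the block 0.000528), and the other 4 pairs passed in neither fit. A second Irf4 probe set had a mean of 6.51, under the background level, and passed with IL-2 alone of the 5 cytokines (difference 1.88, adjusted p = 0.000122).

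Irf8 had a narrower range, with group means that spanned 0.97. With IL-2 its levels were 11.07, 10.59 and 10.71, against 10.37, 9.91 and 9.18 in media control. These did not overlap, and the difference of 0.97 did not pass in the fit without the block (adjusted p = 0.0676) and did with it (0.000119) or without media control replicate 1 (0.0287). A second Irf8 probe set, mean 9.63, passed without the block (difference 1.17, adjusted p = 0.00638). With IL-4 (10.77, 10.36 and 10.12), IL-7 (10.97, 10.51 and 10.07) and IL-21 (10.74, 10.23 and 10.08) the levels overlapped the control. The differences of 0.60, 0.70 and 0.53 passed with the block alone (adjusted p 0.359, 0.370 and 0.495, with the block 0.00746, 0.00586 and 0.0185). With IL-15 Irf8 was at 10.80, 10.08 and 9.54, which overlaps the control (difference 0.32). Irf8 was highest in replicate 1 of every group. No pair of cytokines passed without the block, and with it Irf8 was higher with IL-2 than after IL-15 (0.65, adjusted p = 0.00449) or IL-21 (0.44, adjusted p = 0.0461).

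Since dendritic cells and B cells of the priming culture can also carry Irf8, Irf4 and Batf3 transcripts, their markers were read beside these genes. Of 8 dendritic cell markers measured, Ly75 alone had a mean above the background level, and Xcr1, Zbtb46, Flt3, Siglech and Itgax were under it. Summed over the 8 genes on the linear scale, the level was 279 to 489 in IL-2 cells, 446 to 551 in IL-4 cells, 479.7 to 503 in IL-7 cells, 287 to 615 in IL-15 cells, 447 to 542 in IL-21 cells and 313 to 643 in media control. Itgax was lower with IL-2 (difference -1.42, adjusted p = 0.00979). Of 9 B cell markers, Cd79b alone was above the background level, and the sum ran over 348 to 493 in IL-2 cells, 393 to 438 in IL-4 cells, 366 to 403 in IL-7 cells, 420.3 to 539 in IL-15 cells, 351 to 410.4 in IL-21 cells and 475 to 628 in media control. The mean log2 level of the B cell list was highest in media control (5.50, against 5.07 to 5.33 with the cytokines). That of the dendritic cell list was 5.26 in IL-2 cells, 5.51 in IL-4 cells, 5.43 in IL-7 cells, 5.43 in IL-15 cells, 5.55 in IL-21 cells and 5.48 in media control, so it was not highest in media control, although its highest single array was. Some of these markers also differed between replicates in the fit with the block, a contrast added after the values had been seen. Between replicates 3 and 1, 51.8% of all genes passed. The counts of markers for that contrast lie near this share and do not set the lists apart. Between replicates 3 and 1, Irf4 (0.68) and Batf3 (0.48) were higher in replicate 3 and Irf8 (-0.83) was lower. Irf8 was also lower in replicate 2 than in replicate 1 (-0.50). Of the 9 B cell markers 4 were higher in replicate 3, which were Blk (0.66), Fcer2a (0.63), Ms4a1 (0.37) and Pax5 (0.36). Of the 8 dendritic cell markers 3 were lower, which were Ly75 (-1.36), Clec10a (-0.92) and Itgax (-0.49), and Siglech (0.25) was higher. Between replicates 2 and 1 no marker of either list passed (12.6% of all genes did). The part of such cells in the levels of Batf3, Irf4 and Irf8 was not tested.

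**Figure D2:**
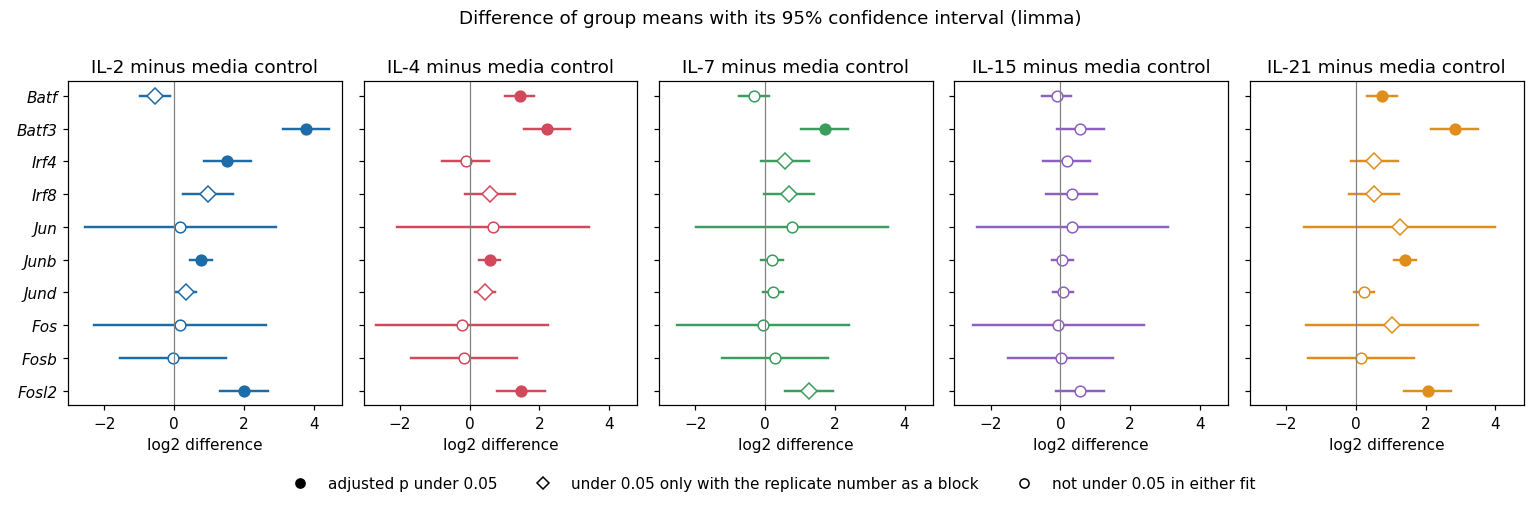
Differences in log2 level from media control (x axis) are shown for the 10 genes (y axis) and the 5 cytokines (panels), with 95% confidence intervals from limma on 3 arrays per group. Filled circles passed an adjusted p of 0.05 and open diamonds passed with the block alone. The intervals of Jun, Fos and Fosb are the widest.

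Among the JUN genes, Junb passed with 3 cytokines, and Jun and Jund with none in the fit without the block. JUNB is known to pair with BATF in T cells. Junb was at 10.74, 11.07 and 10.82 with IL-21, against 9.45, 9.54 and 9.43 in media control. The difference was 1.41 (SE 0.14, 2.66-fold, adjusted p = 2.03e-05), and all IL-21 arrays were above the highest array of every other group. With IL-2 the levels were 10.05, 10.50 and 10.17 (difference 0.77, SE 0.14, adjusted p = 0.00148), and with IL-4 they were 9.79, 10.29 and 10.05 (difference 0.57, adjusted p = 0.0189).

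Both groups lay above the control arrays without overlap. The IL-4 call was lost without media control replicate 3, IL-4 replicate 2 or IL-4 replicate 3 (adjusted p 0.054 to 0.0986), and without any 1 replicate of all groups (0.0966 to 0.185). With IL-7 (9.67, 9.70 and 9.64) Junb was above all control arrays by a mean of 0.20, which did not pass, and with IL-15 (9.41, 9.59 and 9.58) it overlapped them.

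IL-21 stood apart from each other cytokine for Junb. The difference was -0.64 for IL-2 minus IL-21 (adjusted p = 0.0121), -0.84 for IL-4 minus IL-21 (adjusted p = 0.00205), -1.21 for IL-7 minus IL-21 (adjusted p = 0.000159) and -1.35 for IL-15 minus IL-21 (adjusted p = 4.59e-05). Junb was thus lower than with IL-21 in all 4. IL-2 also exceeded IL-15, by 0.71 (adjusted p = 0.00517). With the means ordered from IL-21 through IL-2, then IL-4, then IL-7 and IL-15 to media control, the neighbours IL-4 and IL-7 differed by 0.37 (adjusted p = 0.445, with the block 0.0374), and the neighbours IL-2 and IL-4 and those below IL-7 passed in neither fit.

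The group means of Jund spanned 0.45. JUND is known as the JUN protein that is present in resting cells. With IL-4 its levels were 12.51, 12.68 and 12.55, against 11.89, 12.11 and 12.40 in media control. The groups did not overlap, and the difference of 0.45 missed the threshold (adjusted p = 0.0516) and passed with the block (0.00833) or without media control replicate 3 (0.0174). With IL-2 (12.41, 12.65 and 12.37) it was 0.35 (adjusted p = 0.105, with the block 0.0275, without media control replicate 3 0.0265). The levels were 12.22, 12.39 and 12.47 with IL-7, 12.14, 12.14 and 12.32 with IL-15, and 12.32, 12.50 and 12.29 with IL-21, each overlapping media control.

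Fosl2, whose protein FRA2 is a FOS partner of the JUN proteins, was the FOS gene that passed in the fit without the block. Its levels were 7.80, 8.45 and 8.07 with IL-21, against 5.71, 6.77 and 5.67 in media control, a difference of 2.05 (SE 0.32, adjusted p = 0.000883). With IL-2 they were 7.59, 8.48 and 8.09, a difference of 2.00 (SE 0.32, adjusted p = 0.000532). None of these arrays overlapped the control. For Fosl2, 2 of the 3 control arrays lay under the background level.

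With IL-4 Fosl2 was at 6.98, 7.99 and 7.63 (difference 1.48, adjusted p = 0.00834), a call that was lost without IL-4 replicate 2 (adjusted p = 0.0502) and without replicate 1 (0.0617) or replicate 3 (0.12) of all groups. With IL-7 it was at 7.10, 7.69 and 7.18, all above the control arrays. The difference of 1.27 did not pass in the fit of all arrays and genes without the block (adjusted p = 0.0622). It passed with the block (0.000292) or without media control replicate 2 (0.0423). With IL-15 it was at 6.36, 6.87 and 6.63, overlapping media control (difference 0.56). IL-2 minus IL-15 was 1.44 (adjusted p = 0.0107) and IL-15 minus IL-21 was -1.49 (adjusted p = 0.015). The means of Fosl2 had the same order as those of Junb. The neighbours IL-2 and IL-4 differed by 0.52 (adjusted p = 0.667, with the block 0.0323), and the other 4 pairs passed in neither fit. The other Fosl2 probe set, mean 6.32 and so under the background level, passed in none of the 5 comparisons with media control, with a difference of 0.72 with IL-2 (adjusted p = 0.0634) and 0.49 with IL-21 (adjusted p = 0.373).

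Between cytokines the 10 comparisons gave 20 member calls, and 42 with the block, these 20 among them. For IL-2 minus IL-4, 3 members differed (2.07% of all genes), namely Batf, Batf3 and Irf4. For IL-2 minus IL-7 it was Batf3 (1.42% of all genes), and for IL-2 minus IL-15 it was Batf3, Irf4, Junb and Fosl2 (8.6%). For IL-2 minus IL-21 it was Batf and Junb (6.58%), for IL-4 minus IL-7 Batf (1.34%), for IL-4 minus IL-15 Batf and Batf3 (3.64%) and for IL-4 minus IL-21 Junb (3.81%). For IL-7 minus IL-15 there was none (0.011% of all genes, with 2 members at an unadjusted p under 0.05 in limma). For IL-7 minus IL-21 it was Batf and Junb (2.24%), and for IL-15 minus IL-21 it was Batf, Batf3, Junb and Fosl2 (3.54%).

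Fos, Fosb and Jun, the classical immediate early members, varied by replicate number and not detectably by cytokine in the fit without the block. Fos was at 9.25 to 11.21 in the 6 replicate 2 arrays, against 6.56 to 7.90 in the 6 replicate 1 arrays and 6.49 to 7.75 in the 6 replicate 3 arrays. The replicate 2 arrays did not overlap the others. In all 6 groups, media control included, replicate 2 was the highest.

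These replicate contrasts were added after the values had been seen, from the fit with the block. Replicate 2 minus replicate 1 was 2.64 for Fos (SE 0.21, adjusted p = 8.69e-06), 1.11 for Fosb (adjusted p = 0.00644), 1.32 for Jun (adjusted p = 0.00716), 0.78 for Fosl2 (adjusted p = 0.000399), 0.26 for Junb (adjusted p = 0.0205) and -0.50 for Irf8 (adjusted p = 0.00597). These are 6 of the 10 members (12.6% of all genes). Replicate 3 minus replicate 1 passed for 6 members (51.8% of all genes), at -2.06 for Jun (adjusted p = 4.82e-05), -0.83 for Irf8 (adjusted p = 2.26e-05), -0.62 for Fosb, 0.68 for Irf4 (adjusted p = 5.62e-05), 0.48 for Batf3 and 0.29 for Fosl2. Neither contrast passed for Batf or Jund.

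Jun was at 10.03 to 11.27 in replicate 2, 9.09 to 9.86 in replicate 1 and 5.81 to 8.48 in replicate 3. Within replicate 3, the 3 arrays of lower deposited medians held the 3 lowest Jun levels, 7.08 in IL-2 cells, 6.63 in IL-15 cells and 5.81 in media control, against 8.07 in IL-4 cells, 7.97 in IL-7 cells and 8.48 in IL-21 cells. With IL-21 Jun was at 9.86, 11.27 and 8.48, against 9.09, 10.95 and 5.81 in media control, and each IL-21 array was above the same-numbered control array. The difference of 1.26 (SE 1.29) passed with the block alone (adjusted p = 0.709, with the block 0.0357). In the fit without the block it was -0.14 when media control replicate 3 alone was left out. IL-21 replicate 3 stayed in that fit, so the replicates of the 2 groups no longer matched. Jun did not pass with any other cytokine, with or without the block. A second Jun probe set, mean 7.44 and above the background level, passed with no cytokine in the fit without the block. Its difference with IL-21 was 0.83 (SE 0.51, adjusted p = 0.574). The Jun levels by replicate given here are of the other probe set alone.

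Fos was at 7.90, 11.21 and 7.75 with IL-21, against 6.56, 9.62 and 7.53 in media control, likewise higher in each same-numbered pair. The difference was 1.05 (95% confidence interval -1.42 to 3.51, adjusted p = 0.732, with the block 0.0222). In the fit without the block it was -0.08 when IL-21 replicate 2 alone was left out. Media control replicate 2 stayed in that fit, so the replicates of the 2 groups no longer matched. With the block Fos was also lower in IL-2 cells (-0.88, adjusted p = 0.0499), IL-4 cells (-1.26, 0.0114), IL-7 cells (-1.10, 0.0324) and IL-15 cells (-1.10, 0.0256) than in IL-21 cells, and none of these passed without it. Fosb was under the background level on all arrays but replicate 2 with IL-21, at 6.60.

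Some myeloid cell markers and other immediate early genes also differed between replicates. Of all genes, 12.6% passed between replicates 2 and 1 and 51.8% between replicates 3 and 1. The counts for replicate 3 that follow lie on either side of the latter share. Of the 10 myeloid markers, 3 were higher in replicate 2 than in replicate 1, which were Lyz2 (1.88), Cd68 (0.65) and Itgam (0.52). In replicate 3 against replicate 1, Csf1r (0.58) was higher and 5 were lower, which were Mpeg1 (-0.77), Fcgr3 (-0.76), S100a8 (-0.71), Itgam (-0.55) and Adgre1 (-0.32), while Lyz2 (-0.56, adjusted p = 0.103) did not pass. Lyz2, a macrophage and granulocyte lysozyme, was at 7.09 to 11.54 in replicate 2, 6.30 to 8.81 in replicate 1 and 5.86 to 7.67 in replicate 3 (replicate 2 minus replicate 1, adjusted p = 0.000785). Over the 10 myeloid markers the summed linear level was 451 to 567 in IL-2 cells, 469 to 756 in IL-4 cells, 431 to 808 in IL-7 cells, 502 to 2006 in IL-15 cells, 488 to 1294 in IL-21 cells and 800.2 to 4479.8 in media control. Among the markers Cd14, Adgre1, Itgam, Mpeg1, Fcgr3, S100a8 and S100a9 had means under the background level. Of 14 other immediate early genes, 5 were higher in replicate 2 than in replicate 1, which were Ier3 (0.83), Btg2 (0.82), Zfp36 (0.77), Egr1 (0.56) and Dusp1 (0.41), and 1 was lower, which was Nr4a3 (-0.83). In replicate 3 against replicate 1, 4 were lower, which were Dusp1 (-0.82), Zfp36 (-0.73), Egr3 (-0.58) and Ier2 (-0.48), and 2 were higher, which were Btg2 (1.07) and Nr4a2 (0.72). The part of these in the levels of Fos, Fosb and Jun was not tested. Within every group replicate 2 held the highest level of both Lyz2 and Fos. Among the replicate 2 arrays the groups ranked differently for the 2 genes. In the order media control, IL-15, IL-21, IL-7, IL-4 and IL-2, Lyz2 was at 11.54, 10.17, 9.02, 8.32, 8.09 and 7.09. In that order Fos was at 9.62, 9.61, 11.21, 10.03, 9.25 and 9.31.

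The 3′ minus 5′ signal of the beta-actin control probe sets, one measure of RNA integrity, was 0.16 to 0.34 in replicate 2, 0.18 to 0.30 in replicate 1 and 0.38 to 0.50 in replicate 3. That of the Gapdh control probe sets did not follow this order, at 0.01 to 0.08 in replicate 2, 0.03 to 0.14 in replicate 1 and -0.03 to 0.02 in replicate 3. The part of RNA integrity in the low Jun levels of replicate 3 was not tested.

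**Figure D3:**
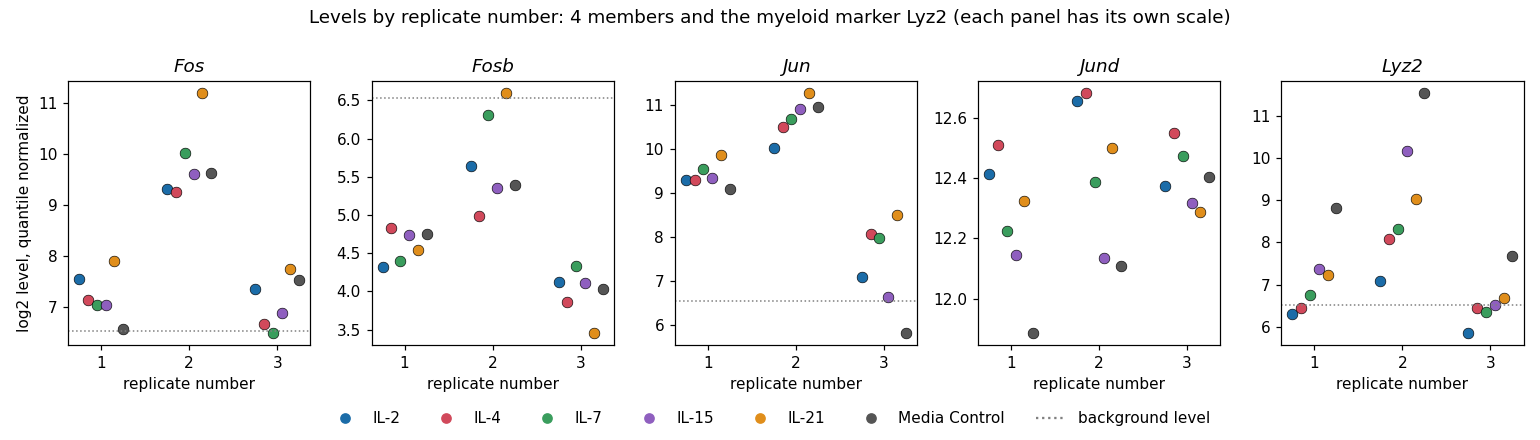
The log2 levels of Fos, Fosb, Jun, Jund and the myeloid marker Lyz2 (y axis, own scale per panel) are plotted by replicate number (x axis), 1 point per group. Fos lies at 9.25 to 11.21 in replicate 2 and at 6.49 to 7.90 in the other 2, and Jun at 5.81 to 8.48 in replicate 3.

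Other transcription factors of the same families were read from lists drawn up around the members. Their counts stand beside the share of all genes that changed, which was 15.8% in IL-2 cells, 9.07% in IL-4 cells, 1.68% in IL-7 cells, 0% in IL-15 cells and 6.67% in IL-21 cells. Among 21 other AP-1, ATF and related bZIP factors, 8 rose and 1 fell in IL-2 cells, 5 rose and 1 fell in IL-4 cells, 1 rose in IL-7 cells, 6 rose and 1 fell in IL-21 cells, and none passed in IL-15 cells. The median difference was 0.19 in IL-2 cells, beside 0.01 over all genes, 0.15 in IL-4 cells (0.00 over all genes), 0.00 in IL-7 cells (-0.02), 0.00 in IL-15 cells (-0.01) and 0.17 in IL-21 cells (-0.01). Nfil3, a bZIP repressor known for its role in lymphocyte development, rose by 3.32 in IL-2 cells (adjusted p = 4.54e-05), by 4.08 in IL-4 cells (adjusted p = 1.63e-05), by 1.89 in IL-7 cells (adjusted p = 0.0232) and by 2.73 in IL-21 cells (adjusted p = 0.000385).

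Atf3, a stress-induced factor, rose by 3.08 in IL-2 cells, 1.76 in IL-4 cells and 1.40 in IL-21 cells. Cebpb, a bZIP factor of inflammatory gene expression, rose by 1.71, 1.30 and 1.59 with the same 3. Bach2, which is known to restrain AP-1 at shared sites in T cells, fell by 2.10 with IL-2 (adjusted p = 3.18e-05) and by 1.48 with IL-4 (adjusted p = 0.000828), and by 1.26 with IL-21 (adjusted p = 0.00327, outside the rule for named genes). It was the 1 factor of the list that fell in each. Atf6, a sensor of unfolded protein in the endoplasmic reticulum, rose by 1.50 with IL-21 (adjusted p = 8.07e-05).

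None of the other interferon regulatory factors rose. Of 6 measured, 4 fell with IL-2 (median -1.45), 1 fell with IL-4 (median -0.55), 1 fell with IL-21 (median -0.75), and none passed with IL-7 (median -0.53) or IL-15 (median -0.19). With IL-2, Irf7, an inducer of type I interferon genes, fell by 1.77 (adjusted p = 0.00126), Irf2 by 1.53 (adjusted p = 0.00188), Irf1 by 1.51 (adjusted p = 0.00136), and Irf9, the DNA-binding part of the interferon-activated ISGF3 complex, by 1.40 (adjusted p = 0.00312). Irf2 fell by 1.05 with IL-4 (adjusted p = 0.0346), and Irf5 by 0.51 with IL-21 (adjusted p = 0.0488). With the block the numbers that fell were 5 in IL-2 cells, 4 in IL-4 cells, 3 in IL-7 cells, 0 in IL-15 cells and 5 in IL-21 cells.

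Of 14 immediate early genes, 1 rose and 2 fell with IL-2, 1 rose and 4 fell with IL-4, 2 rose and 3 fell with IL-21, and none passed with IL-7 or IL-15. The medians of the list were -0.33 in IL-2 cells, -0.59 in IL-4 cells, -0.31 in IL-7 cells, -0.19 in IL-15 cells and -0.56 in IL-21 cells. Ier3 rose by 2.93 with IL-21 (adjusted p = 0.00224) and by 1.84 with IL-2 (adjusted p = 0.022). Nr4a3, a nuclear receptor induced by T cell receptor signals, fell by 1.96 with IL-21 (adjusted p = 0.00284) and by 1.88 with IL-4 (adjusted p = 0.00327), and Egr3 fell by 2.38 with IL-21 (adjusted p = 0.000525). Dusp2, a phosphatase of MAP kinases, fell by 0.99 with IL-2, 1.00 with IL-4 and 0.96 with IL-21, and Btg2 fell by 2.41 with IL-2 (adjusted p = 0.0013).

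Of 14 MAP kinase and NFAT genes that feed AP-1, none rose and 2 fell with IL-2, none rose and 4 fell with IL-4, 1 rose and 2 fell with IL-21, and none passed with IL-7 or IL-15. The 2 of 14 with IL-2 are a smaller share than the 15.8% of all genes. The medians lay between -0.08 and 0.01. Elk4, a serum response factor partner that acts on Fos, fell by 1.39 with IL-2 (adjusted p = 3.22e-05), 0.87 with IL-4 (adjusted p = 0.00193) and 1.14 with IL-21 (adjusted p = 0.000256). Nfatc1 fell by 0.47, 0.54 and 0.69 with the same 3, and Nfatc2 rose by 0.63 with IL-21 (adjusted p = 0.00825).

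Of 10 measured genes that are known, mainly from CD4 T cells, to be bound by BATF and IRF4 together, 2 rose and 1 fell in IL-2 cells, 2 rose in IL-4 cells, 2 rose and 1 fell in IL-7 cells, 4 rose in IL-21 cells and none passed in IL-15 cells. The medians were 0.30 in IL-2 cells, 0.17 in IL-4 cells, -0.15 in IL-7 cells, -0.03 in IL-15 cells and 0.97 in IL-21 cells. Il2ra, the alpha chain of the IL-2 receptor, rose by 3.14 in IL-2 cells, 2.67 in IL-4 cells, 2.24 in IL-7 cells and 2.74 in IL-21 cells. Prdm1, which encodes BLIMP-1, rose by 2.46 in IL-2 cells, 2.02 in IL-4 cells, 1.44 in IL-7 cells and 3.70 in IL-21 cells, over a media control mean of 5.18 that lies under the background level. Bcl6, its known opponent, fell by 2.46 with IL-2 (adjusted p = 0.000376) and by 1.66 with IL-7 (adjusted p = 0.0361). With IL-21, Il10 rose by 5.81 (adjusted p = 1.54e-07) and Il21 by 1.92 (adjusted p = 0.000436). Earlier results of these arrays were known when the list was made, so its counts are a description.

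**Figure D4:**
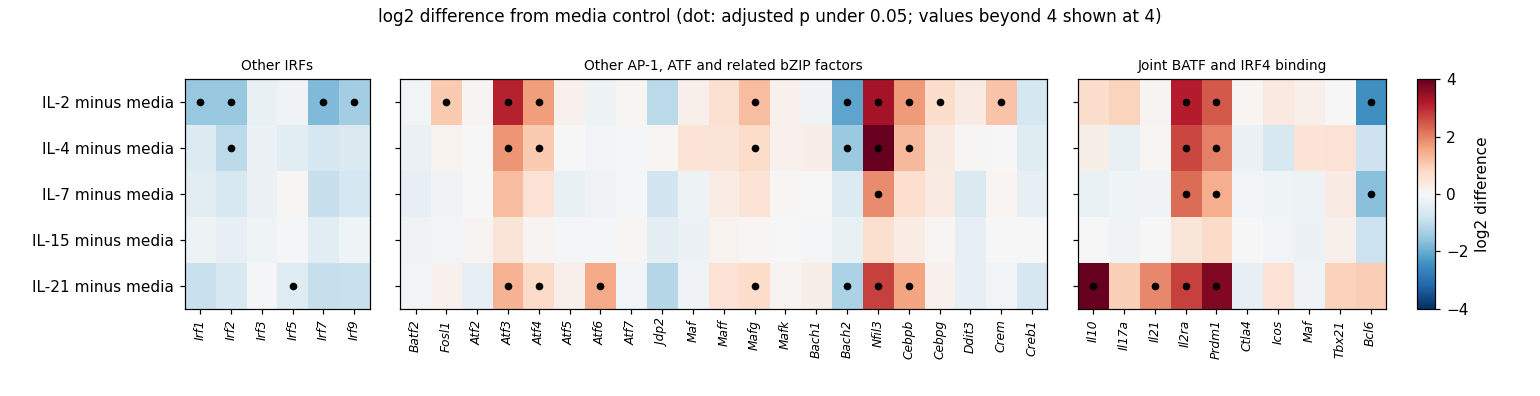
Colour gives the log2 difference from media control of each gene (x axis) with each cytokine (y axis), from 4 lower (blue) to 4 higher (red), and dots mark an adjusted p under 0.05. The other interferon regulatory factors carry 4 dots with IL-2, all on falls, and Nfil3, Il2ra and Prdm1 carry dots on rises with 4 of the 5 cytokines.

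For the 7 members whose group means spanned over 1 on the log2 scale, the genes of most similar pattern were taken as those with the smallest root mean square difference of the 6 centred group means. For Batf they were Ecm1 (0.16), Casp6 (0.21) and Selenon (0.23), for Batf3 Cth (0.36), Il2ra (0.39) and Serpinf1 (0.40), and for Irf4 Gpd2 (0.11), Asph (0.12) and Ptgfrn (0.12). For Junb they were Gnb5 (0.12), Slc39a14 (0.13) and Galc (0.14), and for Fosl2 Pim1 (0.12), Rab33a (0.14) and Tmem163 (0.15). Jun was nearest to Pcdhgc4 (0.11), Sema4a (0.12) and Sema4d (0.14), and Fos to Matn2 (0.05), Slc4a11 (0.09) and Rfk (0.09), with group means that rest on replicates of wide spread in both.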

How the data were processed

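The authors hybridised RNA to Affymetrix mouse arrays and deposited log2 values per probe set, made with RMA in Expression Console 1.1. The 18 columns were quantile normalized again, and 1 probe set per gene was kept from the 34958 of 45101 with a single gene symbol (932 had several and 9211 were not listed). Groups were tested in limma 3.58.1 (R 4.3.3) with a mean for each group, 12 residual degrees of freedom, eBayes and Benjamini-Hochberg adjustment. The procedure was also run on simulated data with independent arrays. Those data lack the correlation of same-numbered arrays found here, so the run cannot show how the fit behaves under it. The 3 arrays per group limit the precision. Figures were drawn with matplotlib 3.10.9 in Python 3.11.15.

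After group means were removed, the 45 pairs of same-numbered arrays had correlations from 0.442 up (median 0.598). The 90 pairs of different number reached at most 0.383, so the numbers pair the samples.

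The members and lists were chosen with earlier results of these data known. Named were the 10 members, up to 4 passing genes of largest difference per list and cytokine, and the 3 genes of nearest pattern for members spanning over 1. Alternatives were values as deposited, median centring, the replicate block, left-out arrays or replicates, only the 2 groups compared, other probe sets, a level filter and trended robust variance. The fit without the 3 arrays of lower median and the contrasts between replicates were added after seeing the data.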

Additional observations from a re-analysis of the deposited data

How the results depend on the processing

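Of the 13 differences of members from media control that passed, all 13 kept their call with arrays centred on their medians, with the replicate block, with genes under the background level left out and with trended robust variance, and none changed direction. With values as deposited 3 kept it (Batf3 with IL-2, with IL-21 and with IL-4), with those values and the block 10, and with the 2 groups alone 10. With values as deposited the members passing numbered 1 in IL-2 cells, 1 in IL-4 cells, 0 in IL-7 cells and 1 in IL-21 cells, and 2 over the pairs of cytokines (20 otherwise), while 74, 67, 8 and 90 of all 18194 genes passed in IL-2, IL-4, IL-7 and IL-21 cells, in that order. The 10 differences whose call was lost were 0.84 to 2.47 as deposited, against 0.57 to 2.05 after quantile normalization. The calls over 5 cytokines were then 4 for the other bZIP factors (23 otherwise), 0 for the other interferon regulatory factors (6), 1 for the immediate early genes (13) and 0 for the MAP kinase and NFAT genes (9). With the replicate block the members numbered 7 in IL-2 cells, 4 in IL-7 cells and 8 in IL-21 cells, the pairs gave 42, and the lists gave 38 for bZIP factors, 17 for interferon regulatory factors, 29 for immediate early genes, 21 for MAP kinase and NFAT genes and 19 for genes bound by BATF and IRF4 (12 otherwise). The block removed no call of a member against media control. With values as deposited and the block 2 members passed with IL-7, with the 2 groups alone 2 with IL-4, and with the level filter 2 with IL-7. With arrays or replicates left out the members numbered 3 to 6 in IL-2 cells and 2 to 4 in IL-4 cells. They numbered 0 to 1 in IL-7 cells, 0 in IL-15 cells and 3 in IL-21 cells. The pairs and lists were counted with whole replicates left out only. The pairs then gave 4 to 25. The lists gave 7 to 30 (bZIP), 1 to 8 (interferon regulatory factors), 5 to 8 (immediate early), 1 to 15 (MAP kinase and NFAT) and 8 to 14 (BATF and IRF4). Without the 3 arrays of lower deposited median, a setting chosen after seeing the data, 5 members passed in IL-2 cells, 4 in IL-4 cells, 1 in IL-7 cells, 0 in IL-15 cells and 3 in IL-21 cells. Fewer arrays were tested where replicates were left out, and the cause of the other changes was not tested. Levels near or under the background level, as for Fosb and for Fosl2 in media control, limit what the arrays resolve.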
